A study of Arabidopsis thaliana with 8 samples.

Results

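A set of 124 Arabidopsis genes stood higher in iron-deficient than in iron-supplied wild-type roots and lower in iron-deficient than in iron-supplied roots of the uri mutant. Each gene is measured by 1 probe set, and the set was chosen from the 21180 probe sets that the array annotation assigns to exactly 1 gene. A probe set was taken when its mean log2 intensity over the −Fe arrays minus that over the +Fe arrays was at least 0.5 in wild type and at most −0.5 in uri. The choice therefore used all 8 arrays, and every difference of the 124 genes between these groups is given here as a description, without a test.

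The study measured root transcripts of Arabidopsis thaliana with 1 single-colour array per RNA sample. Seedlings of wild type and of uri were raised on diluted B5 medium for 14 days, then moved for 3 days to agar medium holding 50 µM Fe(III)-EDTA (+Fe) or holding 300 µM ferrozine, an iron chelator, in its place (−Fe). The 4 groups were thus both genotypes in both media, with 2 biological replicates each. The sources used here do not describe the uri allele. The titles number the −Fe arrays in 1 block and the +Fe arrays in another, so iron supply and whatever that numbering stands for cannot be told apart, while both genotypes are present in each block.

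URI is a basic helix-loop-helix transcription factor that acts near the top of the iron-deficiency response of the root. When iron is short, Arabidopsis roots pump out protons, reduce and import iron, and secrete coumarins, which are phenolic compounds built from phenylalanine that mobilise ferric iron. Coumarins, lignin precursors and flavonoids share the same first enzymes, and sulfate assimilation feeds the methionine from which nicotianamine, a chelator that moves iron inside the plant, is made. Genes of coumarin, lignin precursor and flavonoid synthesis, of sulfate assimilation and of nicotianamine synthesis are among the 124, as is a proton pump, whereas no measured iron importer is.

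URI itself (AT3G19860) is not in the set. With iron its log2 intensity was 8.73 and 8.78 in wild type against 7.84 and 7.64 in uri, and without iron it was 8.64 and 8.60 in wild type against 8.52 and 8.62 in uri. The arrays labelled uri −Fe were thus not separated from wild type by URI transcript, and what the probe set covers of the mutated gene is not given in the sources used here. The correlation between replicate arrays over all probe sets was 0.994 to 0.998, and median intensities lay between 119 and 128 linear units. Root markers were detected: all 11 measured root hair genes and all 21 measured endodermis and suberin genes had a mean over the 8 arrays above the lower quartile of all values (a log2 intensity of 4.71), and none was listed at 0. Of 11 measured xylem secondary wall genes, 10 met the same criterion. All 13 measured photosynthesis genes, taken as markers of shoot tissue, met it as well, so it does not separate root from shoot.

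In wild type the 124 genes were higher under −Fe by 0.50 to 3.24 log2 units, with a median of 0.66, against a median of −0.03 over all single-gene probe sets. In uri they were lower under −Fe by differences from −0.50 to −2.37, with a median of −0.88, against −0.01 over all single-gene probe sets. The standard error of these differences in limma's fit was 0.110 to 0.290 log2 units, with a median of 0.134 (n = 2 arrays per group). The fit estimates 1 spread per probe set over all 4 groups and adjusts it toward that of the other probe sets. Each gene therefore has the same standard error in both genotypes, which is not the spread of only the 2 groups compared. The threshold passed through a dense region: in wild type AT3G20460 (0.503), AT4G34880 (0.505) and AT4G18070 (0.506) lay just inside, and AT4G17670 (0.499), AT4G17280 and AT5G13900 (both 0.498) just outside. In uri, AMT1;2 (−0.504), AT3G21340 (−0.506) and RAD52-2 (−0.507) lay just inside, and SCPL51 (−0.495), AT5G42830 (−0.493) and NAS1 (−0.492) just outside. At least 1 log2 unit was reached by 30 genes in wild type, by 45 genes in uri and by 15 in both.

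**Figure D1:**
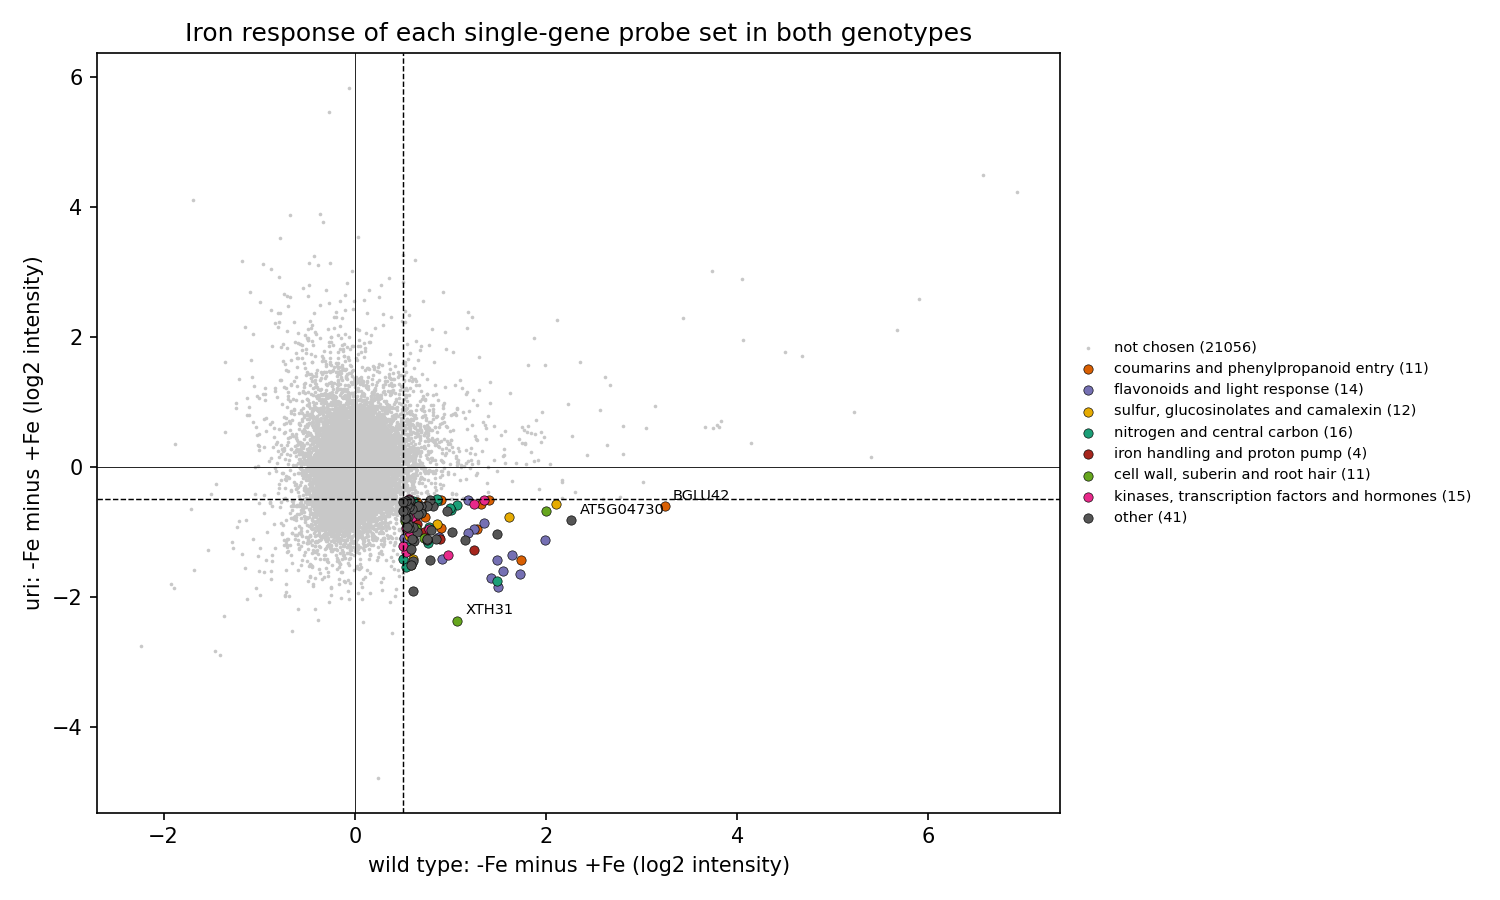
Each point is 1 of the 21180 single-gene probe sets. The horizontal axis is the −Fe minus +Fe difference in wild type and the vertical axis that in uri (log2 intensity, means of 2 arrays per group), the dashed lines are the thresholds at 0.5 and −0.5, and colours give the role of the 124 chosen genes. BGLU42 lies farthest to the right of them and XTH31 lowest.

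Of the 790 single-gene probe sets that were higher by at least 0.5 in wild type, 404 lay between the thresholds in uri, 262 were higher by at least 0.5 there too, and the 124 chosen genes made up 15.7%. They made up 4.53% of the 2736 probe sets that were lower by at least 0.5 in uri. The mirror rule, lower in wild type and higher in uri, was met by 150 probe sets. In limma's fit over all 22746 non-control probe sets, 104 of the 124 were called higher in wild type at an adjusted p under 0.05, where 3.51% of all probe sets were. In uri 121 were called lower, where 18.0% of all were. Both calls were made for 103, where 0.725% of all had both. In the opposite directions, 2.14% of all probe sets were called lower in wild type and 15.1% higher in uri. The rule used the same contrasts, so these counts say nothing beyond it. The wild-type count was 54 without either wild-type −Fe array and 66 without wild-type +Fe replicate 1.

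The arrays of the groups did not overlap in either genotype for 123 of the 124 genes, a pattern that 6.45% of all probe sets showed. Taken singly, 123 had higher non-overlapping arrays in wild type (21.8% of all) and 124 lower ones in uri (32.2% of all). The exception was PGSIP4, annotated as a glycogenin-like starch initiation protein. PGSIP4 had log2 intensities of 4.39 and 5.39 in wild type +Fe, 5.32 and 5.54 in wild type −Fe, 5.42 and 5.00 in uri +Fe and 4.72 and 4.65 in uri −Fe. Its second wild-type +Fe array reached the level of the wild-type −Fe arrays. When each of the 8 arrays was left out in turn, 68 of the 124 met the rule each time, and 56 missed a threshold at least once. No gene changed the sign of either difference under any left-out array or any of the other scalings and averages tried, which is no sign of stability since the genes were chosen by these signs.

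The set was of moderate to high signal on the array. The median of the 124 mean levels was 8.08 log2 units against 7.05 over all single-gene probe sets, and 90 of the 124 lay above the latter. In 7 genes at least 1 group mean was under the lower quartile of 4.71. None of the 124 probe sets was of a design that the array marks as matching several transcripts, and none of the genes had another single-gene probe set.

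**Figure D2:**
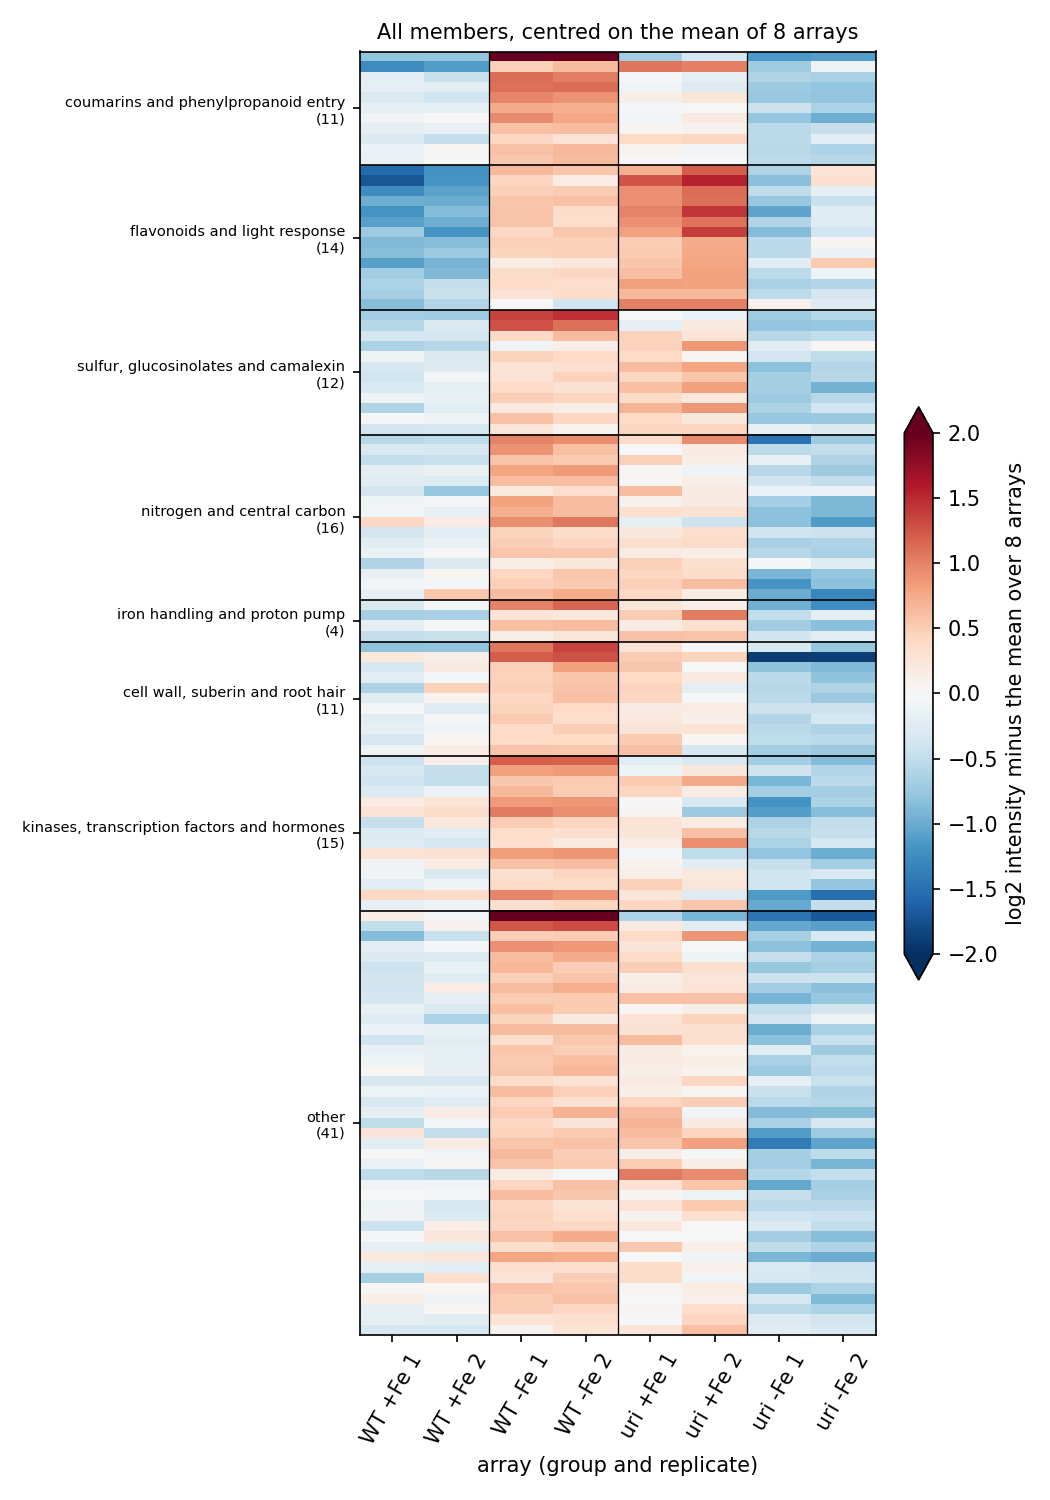
Every row is 1 of the 124 genes and every column 1 of the 8 arrays, and the colour is the log2 intensity minus that gene's mean over the 8 arrays (colours end at −2 and 2). Within each role, genes are ordered by their wild-type difference. The wild-type −Fe columns are above the mean in most rows and the uri −Fe columns below it, while the uri +Fe columns are highest in the rows of flavonoid and light-response genes.

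The same rule can be met from different starting levels. With iron, 55 of the 124 genes were higher in uri than in wild type by at least 0.5, 4 were lower by at least 0.5 and 65 lay between. The 4 lower genes were AT5G04730, the receptor-like kinase gene AT4G20450, the glutamine synthetase gene GLN1;4 and DWF4. For 42 genes the mean in uri with iron was at or above the mean in iron-deficient wild type. Without iron, uri was lower than wild type for 123 genes, 77 of them by at least 1 log2 unit. The exception was UGT78D1, which was higher by 0.11. The rule forces the −Fe difference between genotypes to lie at least 1 log2 unit below the +Fe difference. For 95 genes the level in uri −Fe was also below that in wild type +Fe, and for 29 it was not.

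**Figure D3:**
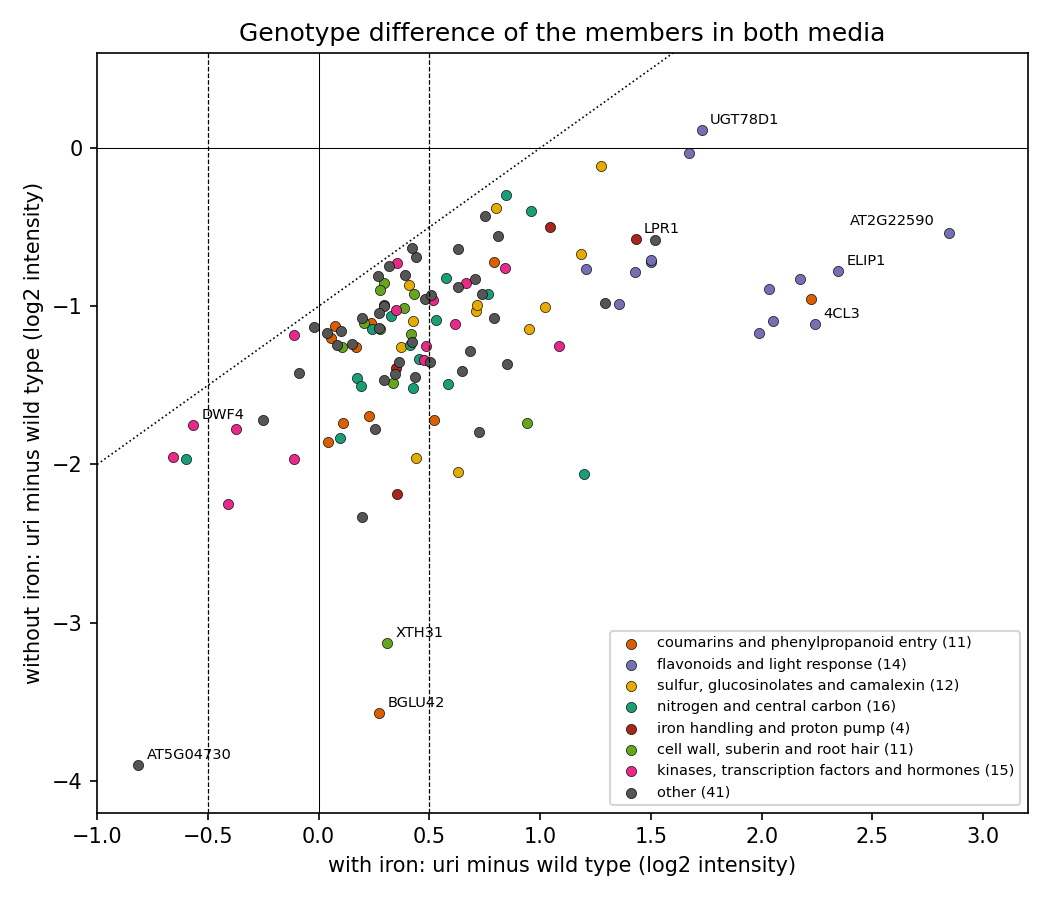
Each point is 1 of the 124 genes. The horizontal axis is uri minus wild type with iron and the vertical axis uri minus wild type without iron (log2 intensity, means of 2 arrays per group), dashed lines mark 0.5 and −0.5, and every point lies below the dotted line because the rule requires it. The flavonoid and light-response genes lie to the right, from 1.21 upward, while BGLU42, XTH31 and AT5G04730 lie lowest.

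The genes were grouped by textbook role after their values had been seen: 83 fell into 7 groups and 41 into none. The first group, of 11 genes, holds the entry of the phenylpropanoid pathway and coumarin synthesis. Its differences were 0.66 to 3.24 in wild type and −0.52 to −1.44 in uri. In 8 of the 11 both genotypes lay within 0.5 of each other with iron, and in 9 the uri −Fe level was below that of wild type +Fe.

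BGLU42 (AT5G36890) encodes a beta-glucosidase that removes the sugar from coumarin glucosides before secretion, and it had the largest wild-type difference of the 124. BGLU42 measured 8.56 and 8.56 log2 units with iron and 11.81 and 11.80 without in wild type, against 8.67 and 9.00 with iron and 8.21 and 8.26 without in uri. The wild-type −Fe arrays stood 9.46-fold above the +Fe arrays (3.24 ± 0.13 log2 units, SE), while all 4 uri arrays lay between 8.21 and 9.00 and the uri difference was −0.60 ± 0.13. COSY (AT1G28680) encodes the acyltransferase that closes the coumarin ring. For COSY, wild type had log2 intensities of 10.19 and 10.20 with iron and 11.12 and 11.08 without, and uri had 10.34 and 10.39 with iron and 9.94 and 9.75 without. The wild-type −Fe arrays were the highest and the uri −Fe arrays the lowest, with no overlap between any −Fe and +Fe pair.

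PAL1 (AT2G37040) encodes phenylalanine ammonia-lyase, the first enzyme of the pathway. PAL1 stood at 11.33 and 11.22 (log2) in wild type with iron, at 12.60 and 12.52 without iron, and in uri at 11.73 and 11.86 with iron and at 10.86 and 10.82 without. The wild-type difference was 1.28 and the uri difference −0.95, and the uri −Fe arrays lay below every other array. The ligases 4CL1 and 4CL2 activate coumarate for the downstream branches. 4CL1 had log2 intensities of 11.35 and 11.41 in wild type +Fe, 12.37 and 12.19 in wild type −Fe, 11.37 and 11.60 in uri +Fe and 10.65 and 10.44 in uri −Fe. 4CL2 measured 10.38 and 10.34 log2 units with iron and 11.68 and 11.69 without in wild type, against 10.49 and 10.31 with iron and 9.86 and 9.79 without in uri. In both genes the +Fe arrays of the genotypes lay close together, and the 4 −Fe arrays lay on opposite sides of them.

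**Figure D4:**
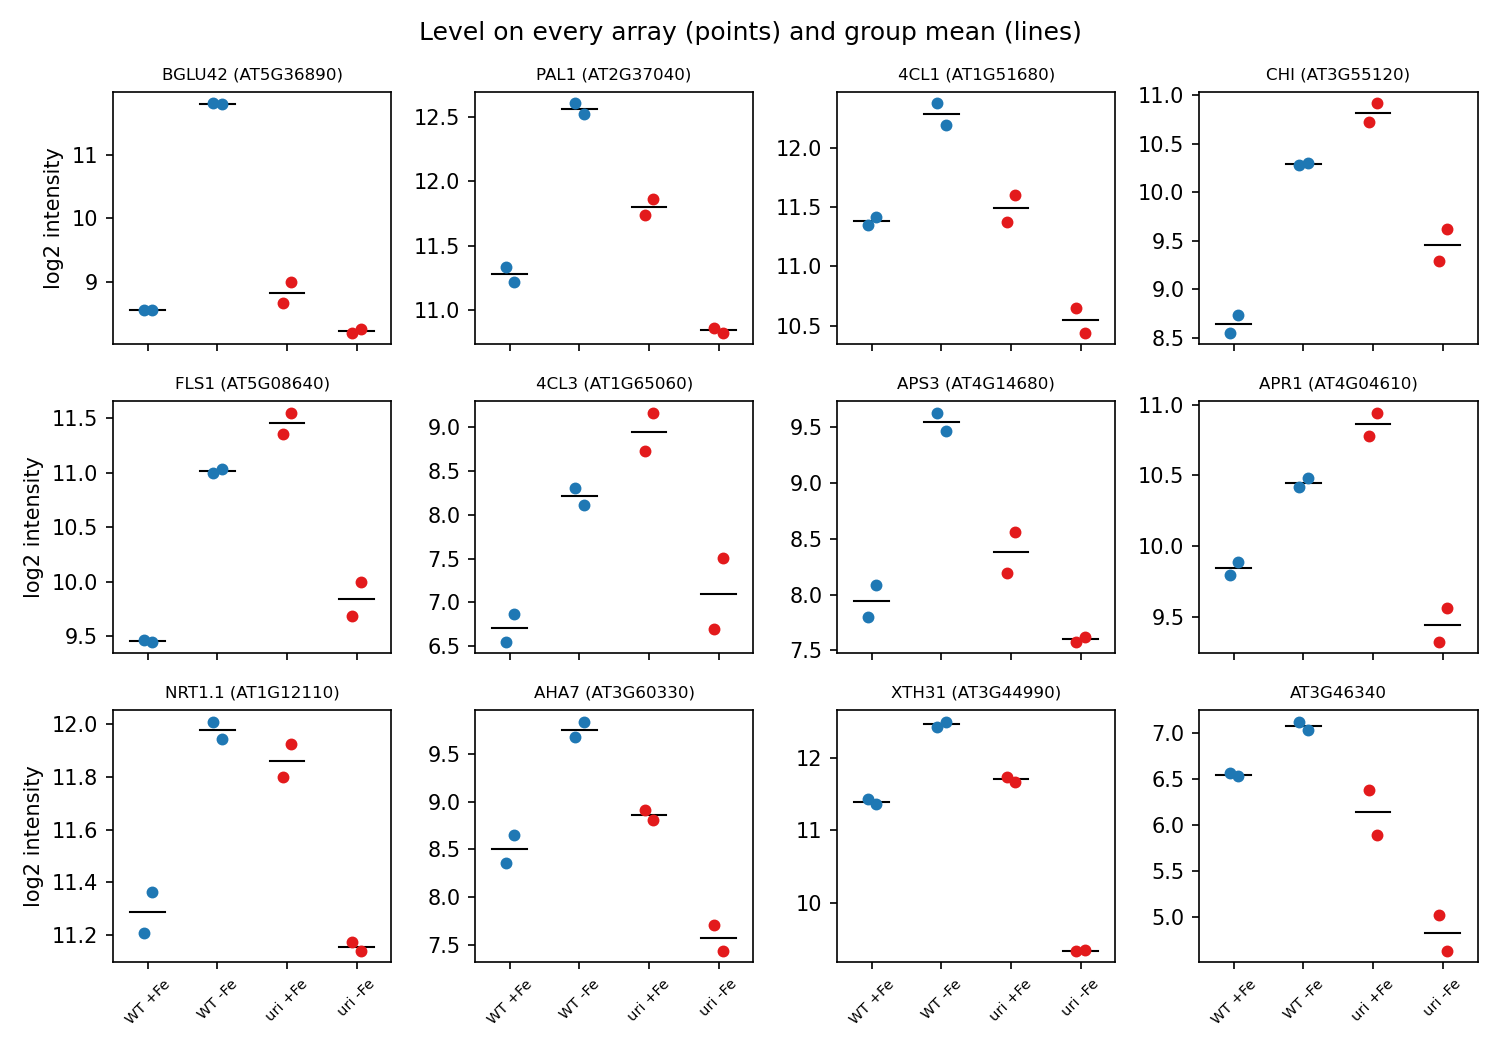
Points are the log2 intensities of 12 of the 124 genes on the 8 arrays, wild type in blue and uri in red, and lines are the means of the 2 arrays of a group (each panel has its own axis, which does not start at 0). In BGLU42, APS3 and AHA7 the wild-type −Fe arrays are highest, in CHI, FLS1, 4CL3 and APR1 the uri +Fe arrays are, and AT3G46340 is lower in uri in both media.

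HCT and C3'H act in succession to make the caffeoyl intermediates used for lignin and coumarins. HCT was higher in wild type by 0.66 and lower in uri by a difference of −0.54, and C3'H had 0.66 and −0.60. Enzymes that supply phenylalanine were also in the group. AAT (AT2G22250), an aminotransferase that acts on prephenate and aspartate, had 1.40 and −0.52, and EMB1144 (AT1G48850), chorismate synthase, had 0.77 and −0.57. Both genes annotated as related to cinnamoyl-CoA reductase were higher in uri with iron, AT2G23910 by 2.22 and AT5G14700 by 0.79. With PAL1, at 0.52, they were the only genes of the 11 to exceed 0.5 there.

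The other genes of these pathways were read from lists, and tested with limma over all 22746 non-control probe sets. Of 20 measured genes of phenylpropanoid entry and lignin precursors, 6 are in the set (PAL1, 4CL1, 4CL2, 4CL3, HCT and C3'H). In wild type 10 of the 20 rose and none fell, and without wild-type −Fe replicate 2 the number that rose was 5. In uri 11 fell and 1, ATR1, rose, and 2 rose without either wild-type +Fe array or without uri +Fe replicate 2. The list's median difference was 0.46 in wild type and −0.38 in uri.

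PAL2, another phenylalanine ammonia-lyase, rose in wild type by 1.93 ± 0.13 (limma adjusted p = 1.2e-06), and its uri difference of −0.35 ± 0.13 missed the threshold (adjusted p = 0.0523), though it passed as a fall without either wild-type +Fe array. C4H, the enzyme between PAL and 4CL, rose in wild type by 0.56 (adjusted p = 0.0122 in limma) and had −0.19 in uri (adjusted p = 0.236). The C4H call was lost when wild-type +Fe replicate 1 or an iron-deficient wild-type array was left out, with adjusted p up to 0.121 in limma. CAD4, of the lignin branch, had 0.49 in wild type (adjusted p = 0.0191) and −0.49 in uri (adjusted p = 0.0042, limma), and so lay just outside both thresholds of the set. Its wild-type call was lost without any 1 of the 4 wild-type arrays (limma adjusted p up to 0.171).

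Of 8 measured genes of coumarin synthesis and secretion, COSY and BGLU42 are in the set. In limma's fit 6 of the 8 rose in wild type, and in uri 3 rose and 4 fell, or 2 fell without uri −Fe replicate 2. F6'H1, the enzyme that commits feruloyl-CoA to coumarins, rose by 2.81 ± 0.13 in wild type (limma adjusted p = 3.39e-08) and had 0.19 in uri (adjusted p = 0.298). S8H, which makes fraxetin, rose by 5.23 in wild type (adjusted p = 3.66e-10) and by 0.84 in uri (adjusted p = 0.000556, limma). Genes of the same pathway thus stood both inside and outside the set.

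Flavonoid and light-response genes formed a group of 14, with a median difference of 1.39 in wild type and −1.25 in uri. All 14 were higher in uri than in wild type with iron, by 1.21 to 2.85 log2 units, and in all 14 the uri +Fe mean was at or above that of iron-deficient wild type. In 13 of the 14 the uri −Fe level was still at or above that of wild type +Fe. This starting level is a description only, since the rule used these arrays and the roles were given after the values were seen. Genes outside the group shared it: the uri +Fe mean was at or above that of iron-deficient wild type in 42 of the 124. Among these were 6 of the 12 sulfur genes and 11 of the 41 genes in no role group.

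CHI (AT3G55120), chalcone isomerase, carries out an early step of flavonoid synthesis. For CHI, wild type had log2 intensities of 8.55 and 8.73 with iron and 10.28 and 10.30 without, and uri had 10.72 and 10.91 with iron and 9.29 and 9.63 without. The wild-type +Fe arrays were the lowest and the uri +Fe arrays the highest, 2.17 log2 units apart. FLS1 (AT5G08640) encodes flavonol synthase. FLS1 stood at 9.47 and 9.45 (log2) in wild type with iron, at 10.99 and 11.03 without iron, and in uri at 11.35 and 11.55 with iron and at 9.68 and 9.99 without. Its uri −Fe arrays lay a little above wild type +Fe, and no groups overlapped.

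4CL3 (AT1G65060) is the 4CL isoform known for the flavonoid branch, and it differed from 4CL1 and 4CL2 in its level with iron. 4CL3 had log2 intensities of 6.55 and 6.87 in wild type +Fe, 8.31 and 8.12 in wild type −Fe, 8.73 and 9.17 in uri +Fe and 6.69 and 7.51 in uri −Fe. The uri +Fe arrays were highest, and the replicates of each uri group differed from each other more than those of wild type. F3H, flavanone hydroxylase, and F3'H, which adds a hydroxyl group to the B ring, followed the same order of groups. F3H measured 10.81 and 11.04 log2 units with iron and 11.77 and 11.85 without in wild type, against 12.13 and 12.13 with iron and 10.95 and 11.14 without in uri. For F3'H, wild type had log2 intensities of 6.59 and 6.69 with iron and 8.25 and 8.02 without, and uri had 8.59 and 8.76 with iron and 7.08 and 7.41 without. CHIL, a chalcone isomerase-like protein that aids chalcone synthesis, had 0.91 in wild type and −1.43 in uri, with uri above wild type by 1.36 with iron.

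The glycosyltransferases that finish flavonols and sinapate esters were 6 of the 14 genes. UGT78D1 and UGT78D2 attach rhamnose and glucose to flavonols, and AT1G06000 attaches rhamnose at another position. UGT78D2 stood at 8.48 and 8.60 (log2) in wild type with iron, at 9.77 and 9.80 without iron, and in uri at 9.85 and 10.09 with iron and at 8.80 and 9.20 without. UGT78D1 had log2 intensities of 5.12 and 5.38 in wild type +Fe, 5.96 and 5.58 in wild type −Fe, 6.98 and 6.99 in uri +Fe and 6.06 and 5.71 in uri −Fe. UGT78D1 was the only one of the 124 with no lower level in uri than in wild type under −Fe, and its second wild-type −Fe array lay only slightly above the nearest wild-type +Fe array. AT1G06000 had 1.19 and −1.02. UGT84A1 and UGT84A2, which act on hydroxycinnamates, had 1.42 and 1.35 in wild type and −1.72 and −0.87 in uri. AT2G22590, a glycosyltransferase gene of the same group, had a genotype difference with iron of 2.85, against wild-type +Fe arrays at 4.27 and 4.80, whose mean lies under the lower quartile of 4.71. Glycosyltransferases by the words of the annotation were 4.84% of the set and 0.685% of all single-gene probe sets.

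ELIP1 (AT3G22840) and ELIP2 (AT4G14690) encode early light-induced proteins that bind chlorophyll. ELIP1 measured 6.88 and 7.23 log2 units with iron and 9.09 and 9.00 without in wild type, against 9.15 and 9.65 with iron and 7.82 and 8.71 without in uri. For ELIP2, wild type had log2 intensities of 6.27 and 6.42 with iron and 7.51 and 7.57 without, and uri had 7.90 and 8.14 with iron and 7.12 and 7.88 without. Both genes were lowest in wild type +Fe, and on the second uri −Fe array ELIP2 was at 7.88, close to the uri +Fe arrays at 7.90 and 8.14. The photosynthesis genes moved the other way. Of 13 measured, 9 fell and none rose in wild type by limma, and fewer fell without either wild-type −Fe array. In uri 8 rose and none fell by limma, and none of the 13 genes was listed at 0. Their summed linear intensity was 5057 to 5676 on the wild-type +Fe arrays, 3369 to 3380 on wild-type −Fe, 4690 to 4908 on uri +Fe and 7774 to 8367 on uri −Fe. Their part in the ELIP values was not tested.

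The uri replicates of this group differed in a common direction. The second uri −Fe array was above the first in 13 of the 14 genes, by a median of 0.41 log2 units, and the second uri +Fe array was above the first in 13, by 0.22. Over the 124 genes the corresponding medians were 0.00 and −0.01. The group's median uri difference was −1.13 without uri −Fe replicate 1 and −1.49 without replicate 2.

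The flavonoid list had 12 measured genes, of which 7 are in the set (CHI, CHIL, F3H, F3'H, FLS1, UGT78D1 and UGT78D2). By limma 7 of the 12 rose in wild type and none fell, or 1 fell without either uri +Fe array, and 8 fell in uri and none rose. MYB12, a regulator of flavonol genes, rose in wild type by 1.1 ± 0.15 (limma adjusted p = 0.000652) and had −0.21 in uri (adjusted p = 0.324). CHS, chalcone synthase, had 0.22 in wild type (adjusted p = 0.371) and −0.36 in uri (adjusted p = 0.0329, limma), a call lost when uri +Fe replicate 1 or any iron-deficient array was left out (adjusted p up to 0.191). DFR, which leads to anthocyanins, and MYB11 passed in neither genotype.

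Sulfur metabolism contributed 12 genes, 8 of them higher in uri with iron by at least 0.5. Sulfate is activated by ATP sulfurylase and then either reduced by APS reductase toward cysteine or phosphorylated by APS kinase for sulfation. APS3 (AT4G14680) encodes an ATP sulfurylase. APS3 stood at 7.80 and 8.08 (log2) in wild type with iron, at 9.63 and 9.47 without iron, and in uri at 8.20 and 8.56 with iron and at 7.58 and 7.62 without. Its wild-type −Fe arrays lay above all other arrays, and its uri −Fe arrays below.

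APR1 (AT4G04610) and APR3 (AT4G21990) encode APS reductases. APR1 had log2 intensities of 9.80 and 9.89 in wild type +Fe, 10.42 and 10.48 in wild type −Fe, 10.78 and 10.94 in uri +Fe and 9.32 and 9.56 in uri −Fe. APR3 measured 7.91 and 7.98 log2 units with iron and 8.48 and 8.68 without in wild type, against 9.02 and 9.42 with iron and 8.33 and 8.60 without in uri. In both genes the uri +Fe arrays were at the top, but the uri −Fe arrays lay at the bottom for APR1 and near wild type −Fe for APR3. AKN2, an APS kinase, had 0.56 in wild type and −1.06 in uri. GR1, which regenerates glutathione, had 0.53 and −0.65, and ERD9, a glutathione transferase, had 0.57 and −1.28.

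Methionine-derived glucosinolates, sulfur-rich defence compounds, were represented at several steps. IPMI1 and IPMI2, small subunits of the isomerase that lengthens the methionine chain, had 0.86 and 0.58 in wild type and −0.88 and −0.93 in uri. SOT17, which adds the sulfate group, had 0.60 and −1.10. FMO GS-OX3 (AT1G62560) oxidises the side chain. For FMO GS-OX3, wild type had log2 intensities of 5.59 and 5.69 with iron and 6.27 and 6.18 without, and uri had 6.48 and 6.70 with iron and 5.22 and 4.94 without. Its uri +Fe arrays were the highest and its uri −Fe arrays the lowest.

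CYP71A12 (AT2G30750) and PAD3 (AT3G26830) make indolic defence compounds, PAD3 the phytoalexin camalexin. CYP71A12 stood at 4.46 and 4.44 (log2) in wild type with iron, at 6.50 and 6.61 without iron, and in uri at 5.15 and 5.01 with iron and at 4.44 and 4.57 without. PAD3 had log2 intensities of 5.47 and 5.29 in wild type +Fe, 6.02 and 5.98 in wild type −Fe, 5.98 and 5.60 in uri +Fe and 5.20 and 5.07 in uri −Fe. CYP71A12 was 4.3-fold higher in iron-deficient wild type, and its uri −Fe arrays were at the wild-type +Fe level, which lies under the lower quartile of all values.

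Of 23 measured genes of sulfate uptake and assimilation, 3 are in the set. By limma 4 rose and 1 fell in wild type, and 4 rose and 15 fell in uri. The wild-type count of rises was 1 without wild-type −Fe replicate 1, −Fe replicate 2 or +Fe replicate 1, and 2 without +Fe replicate 2, and the fall was lost without any 1 of them, while the uri rises numbered 2 without uri +Fe replicate 1. SDI1, induced when sulfur is limiting, had 0.37 in wild type (adjusted p = 0.206) and fell in uri by 2.08 ± 0.15 (limma adjusted p = 9.12e-07). A list of 16 measured glucosinolate synthesis genes, which includes none of the 4 above, holds no member, and 1 of them rose in wild type, or 2 without any 1 uri array, and none fell, or 1 without either uri +Fe array. In uri 8 of them fell and 1, MYB51, rose (limma).

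Nitrogen and central carbon metabolism contributed 16 genes. NRT1.1 (AT1G12110) encodes a nitrate transporter and sensor. NRT1.1 measured 11.21 and 11.36 log2 units with iron and 12.01 and 11.94 without in wild type, against 11.80 and 11.93 with iron and 11.17 and 11.14 without in uri. The uri +Fe arrays were close to those of iron-deficient wild type, and the uri −Fe arrays lay just below wild type +Fe. GLN1;1 (AT5G37600) and GLN1;4 (AT5G16570) encode cytosolic glutamine synthetases, which fix ammonium. For GLN1;1, wild type had log2 intensities of 12.02 and 12.11 with iron and 12.70 and 12.69 without, and uri had 12.32 and 12.29 with iron and 11.59 and 11.51 without. GLN1;4 stood at 8.32 and 8.07 (log2) in wild type with iron, at 8.83 and 8.95 without iron, and in uri at 7.71 and 7.48 with iron and at 7.08 and 6.77 without. GLN1;4 was lower in uri than in wild type in both media, by −0.60 with iron and −1.97 without, whereas GLN1;1 was not lower with iron (0.24).

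AMT1;2, an ammonium transporter, had 0.86 in wild type and −0.50 in uri. CLC-B, annotated as a chloride channel protein, had 0.77 and −1.17. AO, the first enzyme of NAD synthesis, had 1.07 and −0.59.

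PPC1 (AT1G53310), phosphoenolpyruvate carboxylase, makes the oxaloacetate used for organic acids. PPC1 had log2 intensities of 10.62 and 10.67 in wild type +Fe, 11.62 and 11.67 in wild type −Fe, 10.88 and 10.76 in uri +Fe and 10.26 and 10.11 in uri −Fe. PPCK1, the kinase that activates it, had 0.54 in wild type and −1.24 in uri. In PPC1 the wild-type −Fe arrays stood alone at the top.

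TPPI (AT5G10100), a trehalose-6-phosphate phosphatase, had a large difference in both genotypes. TPPI measured 6.91 and 6.96 log2 units with iron and 8.45 and 8.39 without in wild type, against 7.85 and 8.41 with iron and 5.98 and 6.74 without in uri. Its second uri +Fe array reached the wild-type −Fe arrays. SWEET13, a sugar exporter, had 0.54 and −1.54. GPT1, the glucose-6-phosphate carrier of plastids, had 0.86 and −0.53, and iPGAM1, a glycolytic mutase, 0.63 and −0.98. The transketolase gene AT2G45290 had 0.77 and −0.92. The remaining genes were the sugar transporters AT4G04750, AT5G17010 and AT3G20460, with 0.50 to 1.01 in wild type and −0.53 to −1.42 in uri. In AT3G20460 the first wild-type +Fe array was at 7.47 and the second at 8.17, just under the −Fe arrays.

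NRT1.1 and GLN1;1 were the list genes of this group: of 17 measured nitrate genes 4 rose and none fell in wild type by limma, and 1 rose and 15 fell in uri. The wild-type number was 1 without wild-type −Fe replicate 1 and 2 without replicate 2. G6PD3, which supplies reductant, rose by 0.46 ± 0.12 in wild type (limma adjusted p = 0.0387) and fell in uri by 1.68 ± 0.12 (adjusted p = 8.12e-07). Its wild-type call was lost without any 1 wild-type array or either uri −Fe array, with limma adjusted p up to 0.280. NRT2.1, the main high-affinity nitrate transporter, had 0.24 in wild type (adjusted p = 0.433) and fell in uri by 4.79 ± 0.14 (limma adjusted p = 1.5e-09), the largest uri fall on that list. NRT1.8, a nitrate carrier of the xylem, rose in both genotypes, by 2.12 and 2.26 (limma adjusted p = 3.07e-07 and 1.04e-07).

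Iron handling was represented by 4 genes, and all 4 met the rule whichever array was left out. AHA7 (AT3G60330) encodes a plasma membrane proton pump. For AHA7, wild type had log2 intensities of 8.36 and 8.65 with iron and 9.67 and 9.84 without, and uri had 8.91 and 8.81 with iron and 7.71 and 7.44 without. The uri −Fe arrays lay below every other array and the wild-type −Fe arrays above. AHA2, the main root proton pump and not in the set, had 0.39 in wild type (adjusted p = 0.0729) and −0.41 in uri (adjusted p = 0.0148, limma), a call lost when uri −Fe replicate 2 was left out, and also when +Fe replicate 1 was (adjusted p up to 0.130).

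NAS2 (AT5G56080) encodes a nicotianamine synthase and MAT3 (AT2G36880) makes its substrate S-adenosylmethionine. NAS2 stood at 8.56 and 8.60 (log2) in wild type with iron, at 9.18 and 9.28 without iron, and in uri at 9.63 and 9.62 with iron and at 8.64 and 8.83 without. MAT3 had log2 intensities of 12.16 and 12.30 in wild type +Fe, 12.94 and 12.97 in wild type −Fe, 12.50 and 12.66 in uri +Fe and 11.64 and 11.50 in uri −Fe. NAS2 was highest in uri +Fe, and MAT3 was highest in wild type −Fe. Among 18 measured genes of the methionine cycle, ethylene and nicotianamine, MAT3, NAS2 and ACS6 are in the set. In wild type 9 of the 18 rose and none fell, and in uri 5 rose and 6 fell (limma). Fewer rose in wild type without any 1 wild-type array, and more did without either uri +Fe array. NAS1 lay just outside the set, rising by 2.60 ± 0.11 in wild type and falling by 0.49 ± 0.11 in uri (limma adjusted p = 2.42e-08 and 0.0052). LPR1 (AT1G23010), a ferroxidase known from iron and phosphate responses at the root tip, had 0.89 and −1.12.

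None of 17 measured iron regulators, 14 iron distribution genes or 7 iron storage genes is in the set, and of 6 measured genes of iron uptake and proton pumping only AHA7 is. Of the regulators 10 rose in wild type, and in uri 10 rose and 1 fell (limma), the fall being lost when uri −Fe replicate 1 was left out, and also when +Fe replicate 2 was. The importer IRT1 rose in both genotypes, by 6.57 ± 0.19 in wild type and 4.48 ± 0.19 in uri (limma adjusted p = 7.66e-10 and 2.19e-08). IRT2 rose in wild type by 2.43 ± 0.21 (limma adjusted p = 1.55e-05) and had 0.17 in uri (limma adjusted p = 0.592). NRAMP1 had 0.35 in wild type (limma adjusted p = 0.124) and rose in uri by 1.59 ± 0.12 (limma adjusted p = 1.48e-06).

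Cell wall, suberin and root hair genes numbered 11. With iron, 10 of the 11 lay within 0.5 of wild type in uri, and in 10 the uri −Fe level was below wild type +Fe. XTH31 (AT3G44990), a xyloglucan-modifying enzyme of the primary wall, had the largest uri difference of the 124. XTH31 measured 11.43 and 11.36 log2 units with iron and 12.43 and 12.51 without in wild type, against 11.74 and 11.67 with iron and 9.33 and 9.34 without in uri. The uri −Fe arrays were 5.17-fold below the uri +Fe arrays (−2.37 ± 0.11 log2 units, SE), and the wild-type difference was 1.07 ± 0.11.

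ATPMEPCRB (AT4G02330), a pectin methylesterase, showed the reverse weighting. For ATPMEPCRB, wild type had log2 intensities of 5.12 and 5.14 with iron and 6.98 and 7.28 without, and uri had 6.22 and 5.92 with iron and 5.61 and 5.17 without. Its wild-type difference was 2.00 and its uri difference −0.68. CYP86B1 and ASFT, which make suberin monomers in the endodermis, had 0.64 and 0.56 in wild type and −0.95 and −0.59 in uri. CESA5, a cellulose synthase of the primary wall, had 0.56 and −0.84.

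EXT13 (an extensin), AGP3 and FLA15 (arabinogalactan proteins), AT5G19800 (a hydroxyproline-rich glycoprotein), MRH6 (named for root hair morphogenesis) and ROPGEF12 (an activator of ROP GTPases) had wild-type differences of 0.53 to 0.72 and uri differences of −0.62 to −1.10. In ROPGEF12 the second wild-type +Fe array, at 6.78, nearly reached the −Fe arrays at 6.80 and 6.90. Only 3 of the 11 genes met the rule under every left-out array. The second uri +Fe array was below the first in 10 of the 11, by a median difference of −0.30.

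Of 11 measured root hair markers none is in the set; none passed in wild type and 10 fell in uri, or 6 without uri +Fe replicate 1 (limma). Their summed intensity was 5886 to 7575 on wild-type +Fe arrays, 6917 to 7384 on wild-type −Fe, 7028 to 8173 on uri +Fe and 4369 to 4617 on uri −Fe. CYP86B1 and ASFT are on the list of 21 measured endodermis and suberin genes, of which 2 rose and 1 fell in wild type and 2 rose and 10 fell in uri. The wild-type rises numbered 0 without either wild-type −Fe array, 1 without either wild-type +Fe array and 4 without either uri +Fe array. The wild-type fall was lost without wild-type −Fe replicate 2 and numbered 2 without either uri +Fe array, and the uri rises numbered 1 without uri −Fe replicate 1. The summed intensity of that list was 19293 to 20923, 21521 to 22220, 15463 to 17672 and 12536 to 14422 in the same order of groups. In whole roots, fewer cells of a type and less RNA per cell cannot be told apart, and the part of these cell types in the values of the 11 genes was not tested.

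Regulatory and hormone genes numbered 15. In all 15 the uri −Fe level was below that of wild type +Fe. Leucine-rich repeat kinase genes were 4 of them. AT3G46340 stood at 6.56 and 6.53 (log2) in wild type with iron, at 7.12 and 7.04 without iron, and in uri at 6.38 and 5.89 with iron and at 5.02 and 4.63 without. AT3G46370 had log2 intensities of 5.55 and 5.65 in wild type +Fe, 6.24 and 6.27 in wild type −Fe, 5.39 and 5.07 in uri +Fe and 4.20 and 4.75 in uri −Fe. AT4G20450 measured 6.07 and 6.16 log2 units with iron and 6.82 and 6.71 without in wild type, against 5.84 and 5.07 with iron and 4.69 and 4.93 without in uri. In these genes uri was below wild type in both media, by −0.37 to −0.66 with iron and −1.78 to −2.25 without. The 4th, AT3G21340, had −0.11 with iron and −1.18 without. AT3G46340 and AT3G46370 lie 4 genes apart on chromosome 3 in the RefSeq gene table. The kinase genes AT2G19410 and AT1G33260 had larger wild-type differences, 1.35 and 1.24, beside −0.51 and −0.57 in uri. In AT2G19410 both uri means, and in AT3G46370 the uri −Fe mean, lay under the lower quartile of all values.

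Hormone synthesis and transport genes were GA3OX2, the last step to active gibberellin, DWF4, a brassinosteroid hydroxylase, ACS6, an ethylene precursor synthase, and PIN5, an auxin carrier of the endoplasmic reticulum. For GA3OX2, wild type had log2 intensities of 6.87 and 6.79 with iron and 7.81 and 7.81 without, and uri had 7.80 and 8.03 with iron and 6.36 and 6.75 without. DWF4 stood at 9.05 and 9.06 (log2) in wild type with iron, at 9.60 and 9.64 without iron, and in uri at 8.72 and 8.25 with iron and at 7.98 and 7.76 without. GA3OX2 was about as high in uri +Fe as in wild type −Fe, whereas DWF4 was lower in uri than in wild type on every array. ACS6 had 0.53 and −0.94, and PIN5 0.58 and −1.02, with PIN5 under the lower quartile in wild type +Fe and uri −Fe. The transcription factor genes bZIP5, WRKY60, HSFC1, ZF1 and AT2G44940 (annotated as TINY-like) had 0.51 to 0.77 in wild type and −0.52 to −1.22 in uri. By the words of the annotation, transcription factors were 4.03% of the set and 5.51% of all single-gene probe sets, and kinases 6.45% and 5.98%.

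Cell division genes, as markers of dividing cells, held no member. None of 10 measured passed in wild type and 9 fell in uri (limma), with a summed intensity of 3463 to 3556 on wild-type +Fe arrays, 3501 to 3768 on wild-type −Fe, 3663 to 4062 on uri +Fe and 2019 to 2161 on uri −Fe. Their part in the uri values of the 124 genes was not tested. Xylem secondary wall genes held no member either. Of 11 measured, 3 rose in wild type and 1 fell in uri (limma). The wild-type number changed with the array left out, and no rise in wild type was called under every left-out array. Their summed intensity was 3076 to 3910 on wild-type +Fe arrays and 4938 to 4994 on wild-type −Fe. On uri +Fe arrays it was 2924 to 3071 and on uri −Fe 3184 to 3419. The part of xylem in the values of the 124 genes was not tested.

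Of the 41 genes in no role group, AT5G04730 had the largest genotype difference without iron of the whole set, −3.90, and the files give no function for it. AT5G04730 had log2 intensities of 7.56 and 7.43 in wild type +Fe, 9.78 and 9.75 in wild type −Fe, 6.83 and 6.54 in uri +Fe and 5.97 and 5.75 in uri −Fe. All uri arrays were below all wild-type arrays, and in wild type the −Fe arrays were 4.8-fold above the +Fe arrays. AT5G40590, a DC1 domain protein gene, had 1.48 and −1.04. CB5-B (AT2G32720), a cytochrome b5 that passes electrons to enzymes of the endoplasmic reticulum, had 1.02 and −1.01.

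KAT5 (AT5G48880), a thiolase of fatty acid breakdown, was, like the flavonoid genes, highest in uri +Fe. KAT5 measured 8.83 and 8.78 log2 units with iron and 9.48 and 9.31 without in wild type, against 10.37 and 10.28 with iron and 8.76 and 8.87 without in uri. Its uri +Fe arrays lay above all others, and its uri −Fe arrays at the level of wild type +Fe. The ABC protein genes ABCI20 and ABCI21 were both in the set, with 0.79 and 0.65 in wild type and −1.43 and −1.01 in uri.

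AT4G36010, a thaumatin-like protein gene, had the second-largest uri difference, −1.91, with 0.60 in wild type. For AT4G36010, wild type had log2 intensities of 7.42 and 7.77 with iron and 8.18 and 8.22 without, and uri had 8.19 and 8.45 with iron and 6.23 and 6.58 without. Its uri −Fe arrays lay below all others. AT1G71870, a MATE efflux carrier gene, had 0.59 and −1.27, SP1L5, a microtubule-associated SPIRAL1-like gene, 0.61 and −1.45, and PAO4, a polyamine oxidase gene, 0.82 and −0.61. The 41 genes as a whole ranged from 0.50 to 2.26 in wild type and from −0.51 to −1.91 in uri.

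The 124 genes were spread over the genome. Chromosomes 1 to 5 held 28, 18, 25, 20 and 33 of them, that is 22.6%, 14.5%, 20.2%, 16.1% and 26.6%, beside 25.8%, 16.1%, 19.9%, 14.7% and 22.9% of all single-gene probe sets, and no organelle gene was included. By the RefSeq gene table, APS3 and ELIP2 are direct neighbours on chromosome 4, as are AT1G06540 and AT1G06550, an enoyl-CoA hydratase family gene, on chromosome 1. PIN5 and GLN1;4, and AT5G17010 and UGT78D2, lie 4 genes apart on chromosome 5. APS3 was highest in wild type −Fe and ELIP2 in uri +Fe, so these neighbours differed in their order of groups. No gene of the set was annotated as a peroxidase, expansin, laccase, dirigent, germin or ribosomal protein. In that order these were 0.401%, 0.146%, 0.0708%, 0.0425%, 0.142% and 1.45% of all single-gene probe sets. With shares this small, their absence from 124 genes says little.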

How the data were processed

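Root RNA was hybridised to 8 single-colour arrays. Each deposited value is a summarised intensity of 1 probe set, which the authors computed by RMA, a method of background correction, quantile normalization and probe summary (per the submitters' processing notes; version not given in the sources used here). Values were on a linear scale, and log2 was taken. Of 22810 probe sets, 64 controls were left out. The deposited annotation, joined by probe-set identifier, gave 1 gene for 21180, several for 1039 and none for 527. Symbols and gene order came from the RefSeq gene table, which lists all 124 genes. No coordinates are printed because the build behind the deposited annotation is not given in the sources used here.

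Differences are between means of 2 arrays, so the number of arrays limits precision. The background, the standard errors and the tests of list genes came from limma 3.58.1 in R 4.3.3. It used lmFit and eBayes with 1 mean per group over 8 arrays. Tests were two-sided, with Benjamini-Hochberg over 22746 probe sets and calls at an adjusted p under 0.05. The fit was also run on simulated arrays with independent probe sets, which does not show how it performs on these data. The 19 lists hold 269 textbook genes, 251 of them measured. Members and lists were chosen with earlier results of these data known.

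Genes were named by rule. These were members on a list, the 10 with the largest difference in wild type, in uri and between the genotypes, and those nearest the thresholds. For each list that holds a member, up to 4 non-members with the largest wild-type difference were picked too. These were 32 genes, and only some of them are mentioned here. Other genes of the set, and list genes such as SDI1 and NRT2.1, were named after their values were seen. Alternatives changed the threshold, scaling, averaging, filter, moderation, replicate block and each array. Promoter motifs were not analysed here.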

Additional observations from a re-analysis of the deposited data

Results flagged for a closer look

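For 123 of the 124 genes, both iron-deficient arrays lay above both iron-supplied arrays in wild type and below them in uri. Among all probe sets 6.45% did, and the rule favours this pattern. The genes were chosen for opposite directions, and the difference between genotypes was not tested.

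List genes outside the set were picked by the size of their wild-type difference, 32 in all. Of these, 13 had iron-deficient arrays wholly above the iron-supplied ones in wild type and wholly below them in uri. That pattern was shown by 6.45% of all probe sets. The reverse pattern was shown by 1 of the 32 and by 8.04% of all probe sets. The 32 were chosen for large wild-type differences, and only from lists that hold a gene of the set. That choice favours the first pattern, so these shares are a description and no test. The wild-type difference minus the uri difference, on the log2 scale, was 3.09 for NAS1, 2.28 for PAL2, 2.14 for G6PD3, 2.01 for RFNR2, 1.68 for NAR2.1, 1.33 for SDI2 and 1.2 for ABCG6. It was 0.98 for CAD4, 0.93 for GPAT5, 0.81 for AHA2, 0.76 for C4H, 0.71 for SULTR4;1 and 0.58 for CHS. For CASP5, a Casparian strip gene, it was −1.09, as this gene was lower in iron-deficient wild type and higher in iron-deficient uri. None of these differences between the genotypes was tested. In limma's fit within each genotype, both changes passed only for NAS1, G6PD3 and CAD4. For PAL2, C4H and SULTR4;1 only the wild-type rise passed, and for the other genes of this paragraph only the uri change did.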

How the results depend on the processing

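The number of genes in the set followed its threshold: 229 at 0.4, 66 at 0.6 and 15 at 1. It stayed within 1.5 times of 124 in the other settings, with 118 after centring each array (109 shared) and 121 after quantile normalization (114 shared), and 116 to 182 when 1 array was left out, the highest without wild-type +Fe replicate 2. Of 936 values of named members under alternatives, 61 moved by more than the spread between replicates and 0 changed sign, which is no sign of stability because the genes were chosen by these signs.

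Calls numbered 1285 in wild type and 7528 in uri with all arrays. Leaving out 1 array gave 435 to 1729 in wild type (494 and 435 without wild-type −Fe replicates 1 and 2, 647 and 821 without +Fe replicates 1 and 2) and 5404 to 7540 in uri. A group left with 1 array is assumed to vary like the other groups. With the replicate number as a block, 1164 probe sets were called in wild type and 7282 in uri, and the deviations of arrays sharing a number correlated at 0.139 in wild type and 0.155 in uri. With only replicate numbers 1 and 2 shared, the samples were not taken as paired.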
